A study of Homo sapiens with 13 samples.

Results

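The genes described here write, copy, read and remove DNA methylation: DNMT1, DNMT3A, DNMT3B, DNMT3L, UHRF1, TET1, TET2, TET3, TDG and MBD2, which are 10 of the 61546 features in the count tables and were chosen by gene symbol. RNA came from RUES2 human embryonic stem cells with a GFP::SMAD4 fusion, a line whose fluorescent SMAD4 reports BMP signaling. In the time series, cells received 100 ng/mL BMP4, the Wnt secretion inhibitor IWP2 at 5 µM and ROCK inhibitor, and ribosome-depleted total RNA was sequenced from 2 libraries at 0 h and from 1 library each at 4, 12, 20, 28 and 42 h. The 0 h labels name the same treatment, and both libraries were read as cells at its start. In the dose response, polyA RNA was sequenced at 5 h from 5 libraries with BMP4, IWP2 and 0, 10, 30, 100 or 300 nM of LDN-193189 (LDN), which blocks BMP receptors, and from 1 library of untreated cells in mTeSR medium. The RNA kits and library preparations differed between the experiments, so levels were compared within each experiment only.

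In mammals, DNA methylation sits mostly on cytosines of CpG dinucleotides. DNMT3A and DNMT3B place new marks, helped by the catalytically inactive DNMT3L, while UHRF1 brings DNMT1 to freshly replicated DNA to copy existing ones. TET1, TET2 and TET3 oxidize 5-methylcytosine, TDG excises the oxidized bases for repair, and MBD2 binds methylated CpG and recruits repressor complexes. Human embryonic stem cells are known for high DNMT3B, and naive and primed pluripotent states are known to differ in methylation.

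The promoters of TET1, TET3 and UHRF1 are shown first. In the main fit the RNA of these genes followed LDN dose, upwards for TET1 and TET3 and downwards for UHRF1. With other settings of the fit they passed in 9, 10 and 11 of 15 cases. DNMT3B also rose with LDN and passed in 15 of 15, but its promoter is not shown. The TET1 and TET3 sequences lie directly upstream of the annotated canonical start, on GRCh38 and the plus strand. They were taken at chr10:68560087-68560336 for TET1, chr2:73984660-73984909 for TET3 and chr19:4909251-4909429 for UHRF1. The UHRF1 sequence, on the same build and strand, is the first 179 bases of its 250-base window and holds 19 CpG. The rest of that window, up to the start, lies in an exon of another transcript and is not shown. Capitals mark CpG dinucleotides.
TET1: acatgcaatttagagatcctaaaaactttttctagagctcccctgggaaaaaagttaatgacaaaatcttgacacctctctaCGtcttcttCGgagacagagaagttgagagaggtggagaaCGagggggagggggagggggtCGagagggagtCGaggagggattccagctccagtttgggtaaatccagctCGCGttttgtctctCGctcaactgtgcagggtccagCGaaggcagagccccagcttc
TET3: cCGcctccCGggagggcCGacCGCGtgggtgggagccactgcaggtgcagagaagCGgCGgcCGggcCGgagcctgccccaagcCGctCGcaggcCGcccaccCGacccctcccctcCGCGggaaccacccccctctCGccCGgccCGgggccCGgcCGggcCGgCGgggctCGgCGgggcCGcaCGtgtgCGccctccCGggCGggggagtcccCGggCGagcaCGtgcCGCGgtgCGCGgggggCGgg
UHRF1: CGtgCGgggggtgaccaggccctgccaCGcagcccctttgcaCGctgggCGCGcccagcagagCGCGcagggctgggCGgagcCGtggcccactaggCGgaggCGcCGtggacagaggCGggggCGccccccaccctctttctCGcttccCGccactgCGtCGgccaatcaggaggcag
In the 250 bases before the start, TET1 held 9 CpG, TET3 held 37 and UHRF1 held 28, against a median of 18 over 20032 promoters of the same length. Of all 10 genes, 8 were above that median and their windows held 21 to 37 CpG, whereas TET1 and DNMT3L, with 9 and 11, were below it. The letters GGCGCC, which SMAD proteins of the BMP pathway are known to bind, occurred in the windows of UHRF1 and TDG and in 22.2% of all promoters, and not in the TET1 or TET3 window. The E2F-type letters TTTCCCGC occurred in UHRF1 alone among the 10 and in 1.98% of all promoters, and TTTGGCGC occurred in none of the 10 and in 0.734% of all. Motifs were searched on both strands, and a match or its absence describes only these letters in this window. Methylation and factor binding at these promoters were not measured in these data.

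Levels between genes were compared per transcript length, in FPKM. At 0 h DNMT3B stood at 496.6 ± 1.27 FPKM (SD, n = 2 libraries), DNMT1 at 105 ± 19.8 and DNMT3A at 92.3 ± 18.0. DNMT3B was the highest of the 10 genes in every one of the 13 libraries, and DNMT1 and DNMT3A exchanged places between the 0 h libraries. The length that the authors' estimate assigned to DNMT1 was 2.45 kb in replicate 1 and 3.13 kb in replicate 2. For DNMT3A it was 2.52 and 2.33 kb, and the part of these lengths in the exchange was not tested. TDG followed at 54.7 ± 10.6 FPKM, UHRF1 at 40.3 ± 4.47 and TET1 at 22.8 ± 7.45. MBD2 at 12.4 ± 0.728 and TET3 at 12.4 ± 2.71 did not differ beyond their spread. TET2 was ninth at 1.01 ± 0.346 FPKM and DNMT3L last at 0.13 ± 0.0283, and these places were theirs in all 13 libraries. DNMT1 and DNMT3A, TDG and UHRF1, and the group of TET1, TET3 and MBD2 changed their order between libraries. In bulk RNA, fewer cells with a transcript and less of it per cell cannot be told apart.

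Library totals ran from 37957385 to 71333471 counts in the time series and from 15600931 in the untreated library to 33989998 in the dose response. All levels in the following are CPM, counts scaled to a common library size, after TMM scaling, which aligns the bulk of genes between libraries. The 0 h libraries differed by a median of 0.27 on the log2 scale over 15934 genes, and mitochondrial transcripts took 7.60% of counts in replicate 1 and 4.29% in replicate 2. The untreated library had 7.89%, against 4.22% to 4.49% in the other libraries of the dose response, and the part of these shares in the results was not tested. Of 8 pluripotency markers, 5 passed downwards on a line fitted over hours, where 17.5% of all genes did. LIN28A, POU5F1 and ZFP42 did not pass, with fitted log2 changes of −0.34, 0.12 and 0.53. The summed level of the 8 was 6047 and 6437 CPM at 0 h and 3795 CPM at 42 h. Amnion markers passed upwards on that line in 7 of 10 cases, where 19.2% of all genes did. Their sum was 35.9 and 43.0 CPM at 0 h and 8242 CPM at 42 h. GATA3, TFAP2A and GATA2 did not pass on that line, but their fitted log2 changes were upward too, at 6.48, 6.88 and 5.69. The median log2 change of the 10 amnion markers at 42 h against 0 h was 8.035. Summed markers of primitive streak reached at most 4.80 CPM, of endoderm 3.21 CPM and of neural cells 1.45 CPM in the time series. Trophoblast markers went from 64.4 and 72.7 CPM at 0 h to 12.5 CPM at 42 h, and germ cell markers from 21.2 and 16.1 CPM to 75.1 CPM. At 0 h these sums came mostly from SDC1 (mean 66.1 CPM) and from KIT (mean 18.1 CPM). The trophoblast markers CGA, CGB5 and ERVW-1 and the germ cell markers PRDM1 and DPPA3 averaged under 1 CPM in the time series. The other germ cell markers, KIT and NANOS3, were tested and both had upward fitted changes over hours. KIT passed on that line, and NANOS3, with a fitted log2 change of 5.11, did not. The median log2 change of these 2 markers at 42 h against 0 h was 4.497. Whether these cell types left or appeared was not tested. The part of the marker changes in the results for single genes was not tested.

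Over the time series, the de novo methyltransferases fell and TET2 rose. A line over hours was fitted to the 7 libraries with the quasi-likelihood test of edgeR, calls were made at 0.05 on p adjusted by Benjamini-Hochberg, and fitted changes are given as log2 values from 0 to 42 h. Of the 10 genes, 9 had a mean of at least 1 CPM and were tested. DNMT3A and DNMT3B passed downwards and TET2 upwards, 3 of 9, where 36.7% of the 15976 genes tested passed. Of these 15976 genes, 19.2% passed upwards and 17.5% downwards. Times after 0 h were single libraries, and the error came from the scatter around the line. A second fit with each time as its own level, in which single libraries are assumed to vary like the 0 h pair, found a difference among times for DNMT3B and TET2, 2 of 9, where 34.9% of all genes passed.

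DNMT3B (ENSG00000088305, chr20:32762385-32809359, plus strand), the main de novo enzyme of these cells, had 1976 and 1947 CPM in the 0 h libraries. It had 1773 CPM at 4 h, 1105 CPM at 12 h, 919.8 CPM at 20 h, 749 CPM at 28 h and 736 CPM at 42 h. All later libraries were under both 0 h libraries, the largest step lay between 4 and 12 h, and little was lost after 28 h. The fitted change was −1.57 ± 0.24 (SE), with an adjusted p of 0.00182 in edgeR, and at 42 h the level was 0.375 times the 0 h mean. In the fit with separate times, 42 h against 0 h gave −1.41 ± 0.38 with an adjusted p of 0.000974 in edgeR.

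DNMT3A (ENSG00000119772, chr2:25227855-25342590, minus strand), the other de novo enzyme, had 197 and 238 CPM at 0 h and 236 CPM at 4 h. It then had 197 CPM at 12 h, 163 CPM at 20 h, 132 CPM at 28 h and 129 CPM at 42 h. The libraries at 4 and 12 h lay at or within the 0 h pair, and those from 20 h on lay under it. The fitted change was −0.91 ± 0.18 with an adjusted p of 0.00647 in edgeR, while 42 h against 0 h in the fit with separate times did not pass (−0.76 ± 0.35, adjusted p = 0.0704 in edgeR). That comparison passed on library totals (adjusted p = 0.0133 in edgeR) and with DESeq2 (adjusted p = 0.0469). With hours on a log scale the trend of DNMT3A no longer passed (adjusted p = 0.0585 in edgeR).

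DNMT3L (ENSG00000142182, chr21:44246339-44262216, minus strand), the cofactor without catalytic activity, had 3 to 14 counts per time-series library and 1 to 9 counts per dose-response library. This is 0.0319 to 0.275 CPM over the 13 libraries, at or near the level that 3 counts give, which was 0.0410 to 0.201 CPM. It did not reach the minimum for testing, and no change was detectable at this depth.

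**Figure D1:**
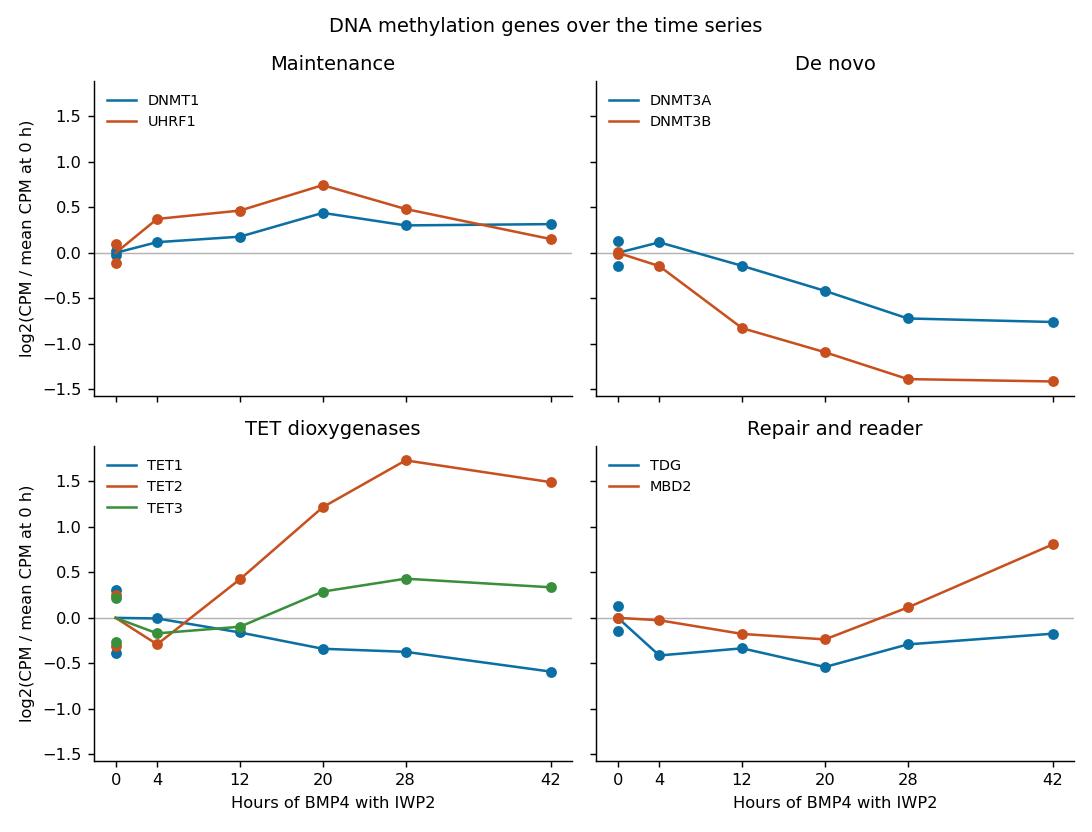
Level of 9 DNA methylation genes over the time series, as log2 of CPM over the mean of the 0 h libraries (y axis) against hours of BMP4 with IWP2 (x axis). Points are single libraries (both 0 h libraries shown) and lines start at the 0 h mean; DNMT3B and DNMT3A fall to 736 and 129 CPM at 42 h and TET2 climbs to 26.2 CPM at 28 h, while the 0 h libraries of TET1 stand 0.69 apart.

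Neither gene of the maintenance pair passed the line over hours. DNMT1 (ENSG00000130816, chr19:10133342-10231286, minus strand), which copies methylation after replication, had 286 and 276 CPM at 0 h. The later libraries had 305 CPM at 4 h, 318 CPM at 12 h, 381 CPM at 20 h, 346 CPM at 28 h and 349.6 CPM at 42 h. All were above the 0 h pair, and the fitted change of 0.36 ± 0.17 did not pass (adjusted p = 0.126 in edgeR). On FPKM the fitted change had the other sign (−0.16 in limma, adjusted p = 0.562), so no direction is given for DNMT1. S1PR2, on the same strand within the DNMT1 locus, reached 27.3 CPM at most, and reads could be split between them by the authors' counting.

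UHRF1 (ENSG00000276043, chr19:4903080-4962154, plus strand), which recognizes hemimethylated CpG for DNMT1, had 121 and 140.2 CPM at 0 h. It had 169 CPM at 4 h, 180.2 CPM at 12 h, 219 CPM at 20 h, 182 CPM at 28 h and 145 CPM at 42 h. Every later library was above both 0 h libraries, with the highest value at 20 h and a return near the start at 42 h. The line over hours did not pass (0.25 ± 0.30, adjusted p = 0.543 in edgeR), a curve with a quadratic term did (adjusted p = 0.0225 in edgeR), and the fit with separate times did not (adjusted p = 0.502 in edgeR). The line was 0.88 without the 42 h library (adjusted p = 0.0978 in edgeR), 0.15 without 0 h replicate 2 and 0.03 without 0 h replicate 1. Summed S phase markers were at 3498 and 4110 CPM at 0 h and at 3201 to 3585 CPM later, with 2 of 17 rising and 3 falling, and of 9 G2 and M phase markers 2 fell. Their part in the DNMT1 and UHRF1 levels was not tested.

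Among the TET dioxygenases, TET2 was the one whose change passed. TET2 (ENSG00000168769, chr4:105145875-105279816, plus strand) had 9.41 and 6.4 CPM at 0 h and 6.46 CPM at 4 h. It had 10.6 CPM at 12 h, 18.4 CPM at 20 h, 26.2 CPM at 28 h and 22.2 CPM at 42 h, the last from 1180 counts with a 95% exact Poisson interval of 21.0 to 23.6 CPM. From 12 h on all libraries were above both 0 h libraries. The fitted change was 2.03 ± 0.40 (adjusted p = 0.00569 in edgeR), and 42 h against 0 h gave 1.5 ± 0.30 (adjusted p = 4.57e-06 in edgeR).

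TET1 (ENSG00000138336, chr10:68560337-68694487, plus strand), the main TET enzyme of pluripotent cells, had 258 and 159 CPM in the 0 h libraries. It had 208 CPM at 4 h, 187 CPM at 12 h, 165 CPM at 20 h, 161 CPM at 28 h and 138.5 CPM at 42 h. Only the 42 h library was under both 0 h libraries, whose gap of 0.69 on the log2 scale was exceeded by 8.77% of genes. The fitted change of −0.61 ± 0.23 did not pass (adjusted p = 0.0703 in edgeR). It passed in 5 of 17 alternatives, among them without 0 h replicate 2 (−0.81, adjusted p = 0.00818 in edgeR) and on library totals (−0.84, adjusted p = 0.0242 in edgeR). Without 0 h replicate 1 it was −0.40 (adjusted p = 0.184 in edgeR).

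TET3 (ENSG00000187605, chr2:73984910-74108176, plus strand), the TET enzyme known from the zygote and from neural tissue, had 125 and 89.9 CPM at 0 h and 95.7 CPM at 4 h. It had 101 CPM at 12 h, 131.5 CPM at 20 h, 145 CPM at 28 h and 136 CPM at 42 h. The libraries from 20 h on were above both 0 h libraries. The fitted change of 0.51 ± 0.22 did not pass (adjusted p = 0.100 in edgeR), and it passed without 0 h replicate 1 (0.71, adjusted p = 0.0376 in edgeR).

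TDG (ENSG00000139372, chr12:103965822-103988874, plus strand), the glycosylase downstream of the TET enzymes, had 109 and 89.9 CPM at 0 h. It had 74.5 CPM at 4 h, 78.7 CPM at 12 h, 68.2 CPM at 20 h, 81.1 CPM at 28 h and 88.0 CPM at 42 h. All later libraries were under the 0 h pair, the last only by a little, and the fitted change was −0.15 ± 0.22 (adjusted p = 0.610 in edgeR). Without 0 h replicate 1 the fitted change was 0.04.

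MBD2 (ENSG00000134046, chr18:54151606-54224669, minus strand), the methyl-CpG reader, had 11.9 CPM in both 0 h libraries, 11.6 CPM at 4 h and 10.5 CPM at 12 h. It had 10.1 CPM at 20 h, 12.8 CPM at 28 h and 20.8 CPM at 42 h. The level thus stayed between 10.1 and 12.8 CPM through 28 h and was highest at 42 h. The line over hours did not pass (0.67 ± 0.26, adjusted p = 0.0770 in edgeR), and without the 42 h library it was 0.01. The comparison of 42 h with 0 h in the fit with separate times passed (0.81 ± 0.30, adjusted p = 0.0233 in edgeR), but not on library totals (adjusted p = 0.126 in edgeR) or with DESeq2 (adjusted p = 0.0986). In that comparison MBD2, TET2 and DNMT3B were the 3 of 9 genes that passed, where 37.7% of all genes did, 19.9% upwards and 17.8% downwards.

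At 4 h none of the 9 genes differed from 0 h in edgeR, against 5.02% of all genes, 4.39% upwards and 0.632% downwards, and none had an unadjusted p under 0.05. DESeq2 also called 0 of 9. The values ran from −0.41 for TDG to 0.37 for UHRF1 on the log2 scale.

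The dose response asked whether these genes followed the strength of BMP signaling early on, when LDN blocks the receptors by degrees. A line over the 5 dose steps from 0 to 300 nM LDN was fitted with edgeR, and fitted changes are log2 values from 0 to 300 nM. DNMT3B, TET1 and TET3 rose with LDN and UHRF1 fell, 4 of 9, where 21.3% of 14907 genes passed, 10.4% upwards and 10.9% downwards. On FPKM, limma called DNMT3B alone. Of 8 pluripotency markers 5 rose with LDN, with sums of 5808 to 6236 CPM over the doses, and of 8 amnion markers tested 6 fell, with a sum of 285 CPM in the library lacking LDN, 49.4 CPM in the 300 nM library and 40.9 CPM in untreated cells. NANOG, POU5F1 and LIN28A did not pass with LDN, at 0.11, −0.03 and −0.05, nor did KRT7 and GABRP, at 0.04 and 0.77. The part of these markers in the dose trends was not tested.

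DNMT3B had 1372 CPM without LDN, 1723 CPM at 10 nM, 1950 CPM at 30 nM, 2203 CPM at 100 nM and 2316 CPM at 300 nM LDN. The level increased at every step, most at the first. The fitted change was 0.75 ± 0.06 (adjusted p = 2.77e-06 in edgeR). The untreated library had 2025 CPM, between the 30 and 100 nM libraries. The ratio of 300 nM LDN over untreated was 1.14 with TMM scaling (95% interval 1.13 to 1.16, counting error only).

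UHRF1 had 152 CPM without LDN, 154 CPM at 10 nM, 146.5 CPM at 30 nM, 143 CPM at 100 nM and 130.2 CPM at 300 nM. The untreated library had 108 CPM, lower than all others. The fitted change was −0.22 ± 0.05 (adjusted p = 0.00685 in edgeR). Without the 300 nM library the fitted change was −0.14 and no longer passed (adjusted p = 0.184 in edgeR).

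TET1 had 83.2 CPM without LDN, 83.8 CPM at 10 nM, 90.4 CPM at 30 nM, 94.6 CPM at 100 nM and 92.2 CPM at 300 nM, and 110.0 CPM when untreated. TET3 had 43.4, 45.1, 48.2, 47.0 and 52.0 CPM at the same doses and 57.6 CPM when untreated. For both, the library without LDN was the lowest of the 6 and the untreated library the highest. The fitted changes were 0.19 ± 0.05 for TET1 (adjusted p = 0.0202 in edgeR) and 0.24 ± 0.06 for TET3 (adjusted p = 0.0155 in edgeR). TET1 no longer passed without the 0 nM (adjusted p = 0.0815), 10 nM (0.0582) or 100 nM library (0.0753), nor TET3 without the 0 nM (0.0720) or 300 nM library (0.222), all in edgeR.

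The other 5 tested genes did not pass. DNMT1 had 285 to 292 CPM over the LDN doses and 302 CPM untreated, with a fitted change of 0.02 ± 0.04 (adjusted p = 0.815 in edgeR). DNMT3A had 196 to 214 CPM and 211 CPM untreated, with 0.09 ± 0.04 (adjusted p = 0.152 in edgeR). TDG had 112 to 119 CPM and 122 CPM untreated, with 0.01 ± 0.05 (adjusted p = 0.866 in edgeR). These 3 genes lay within narrow ranges over all doses. MBD2 had 12.5 to 15.6 CPM and 12.3 CPM untreated, with 0.19 ± 0.12 (adjusted p = 0.289 in edgeR). The MBD2 value was 0.44 without the 300 nM library (adjusted p = 0.057 in edgeR) and 0.07 without the 0 nM library. TET2 had 4.14 CPM without LDN, 2.78 to 3.48 CPM with LDN and 2.74 CPM untreated, from 41 to 121 counts per library, with −0.29 ± 0.23 (adjusted p = 0.409 in edgeR). The depth of TET2 left wide intervals, such as 1.97 to 3.72 CPM in the untreated library (exact Poisson, counting error only).

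**Figure D2:**
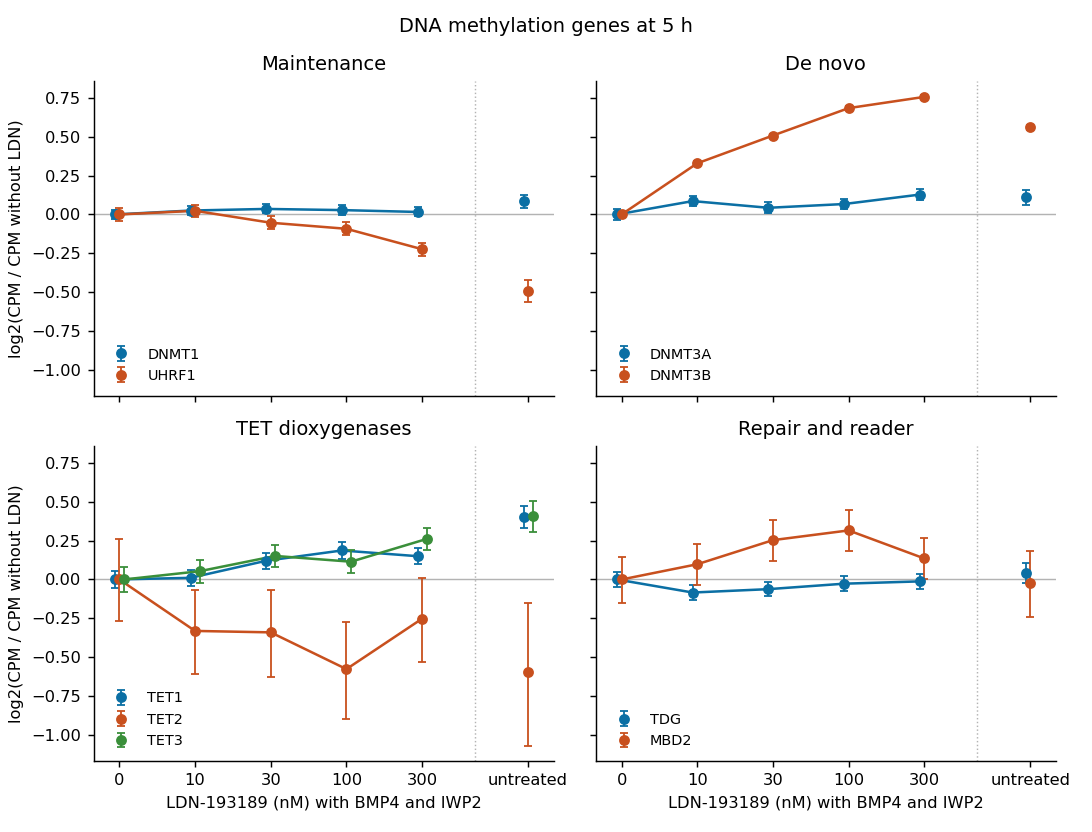
Level of 9 genes at 5 h as log2 of CPM over the library without LDN (y axis), against LDN dose with BMP4 and IWP2 and, right of the dotted line, in untreated cells (x axis). Points are single libraries and bars are 95% Poisson intervals for counting error; DNMT3B rises from 1372 to 2316 CPM with LDN, and UHRF1 and TET1 in untreated cells (108 and 110.0 CPM) lie beyond their 300 nM values.

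**Figure D3:**
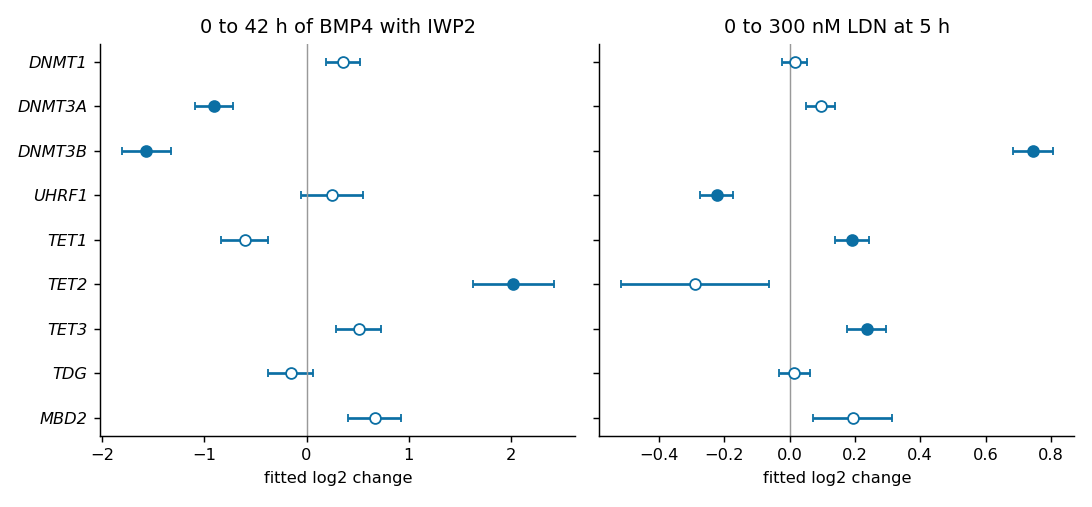
Fitted log2 change (x axis; the scales differ) of the 9 tested genes (y axis) over 42 h in the left panel and from 0 to 300 nM LDN in the right panel. Points are edgeR estimates with bars of 1 SE, filled where the adjusted p was under 0.05; DNMT3B lies at −1.57 over time and at 0.75 with LDN, and TET2 at 2.03 and −0.29.

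For BMP4 and IWP2 without LDN against untreated cells there was 1 library each and no test, and a ratio past 1.5-fold on library totals was counted. TET2 alone of 9 passed it, where 21.7% of 14863 genes did, 15.7% upwards and 6.01% downwards, and with the size factors of DESeq2 none of the 9 did. The TET2 ratio was 1.60 (95% interval 1.12 to 2.34 from 121 and 41 counts). UHRF1 followed at 1.49 (1.41 to 1.58), and DNMT3B was at 0.719 (0.708 to 0.730). TET1 and TET3 were at 0.802 (0.753 to 0.855) and 0.801 (0.734 to 0.874). These intervals cover counting error only, and the median log2 ratio of all genes was 0.10 on this scale. With TMM scaling the ratio was 0.678 for DNMT3B, 1.41 for UHRF1, 0.756 for TET1 and 0.755 for TET3. DNMT1, DNMT3A, TDG and MBD2 were between 0.983 and 1.08 on library totals. The LDN series and this ratio share the library without LDN, so their values are set side by side and are not independent.

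Shares within each enzyme family were taken from FPKM. DNMT3B made up 71.5% and 71.7% of the summed DNMT1, DNMT3A and DNMT3B FPKM in the 0 h libraries. Its share was 67.8% at 4 h and 58.1% in the 12 h library, then 53.3% at 20 h and 52.8% in the last libraries, at 28 and 42 h. DNMT1 went from 17.0% and 13.1% at 0 h to 29.6% at 42 h, and DNMT3A had 11.4% and 15.2% at 0 h and 17.6% at 42 h. The family sum was 696 and 691 FPKM at 0 h and 298 FPKM at 42 h. DNMT3B thus remained the largest of the 3 in every library while its lead shrank. With LDN the DNMT3B share was 68.5% at 0 nM and 77.8% at 300 nM, against 78.3% in untreated cells. The length that the authors' estimate assigned to DNMT1 was 4.49 kb in untreated cells and 3.45 to 3.58 kb in the LDN libraries. In CPM DNMT3B had 2316 at 300 nM and 2025 in untreated cells, and DNMT1 had 288 and 302. The part of the assigned lengths in the shares was not tested. No replicate beyond 0 h carries an error for these shares.

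In the TET family, TET1 held 64.3% and 61.0% of the summed FPKM at 0 h and 42.8% at 42 h. TET3 held 32.8% and 36.4% at 0 h and 48.2% at 42 h, and TET2 held 2.86% and 2.64% at 0 h and 8.91% at 42 h. TET3 was thus above TET1 in the 28 and 42 h libraries and under it in the other libraries of the time series. At 28 h the values were close, with 17.05 FPKM for TET3 and 16.76 FPKM for TET1. The length that the authors' estimate assigned to TET3 was 8.91 and 8.81 kb at 0 h, 8.285 kb at 28 h and 8.15 kb at 42 h. The part of this shift in the order of TET1 and TET3 was not tested. The family sum was 43.6 and 28.8 FPKM at 0 h and 30.0 FPKM at 42 h, so the later sums lay within the 0 h pair. At 5 h TET1 held 64.3% to 68.2% in all 6 libraries.

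**Figure D4:**
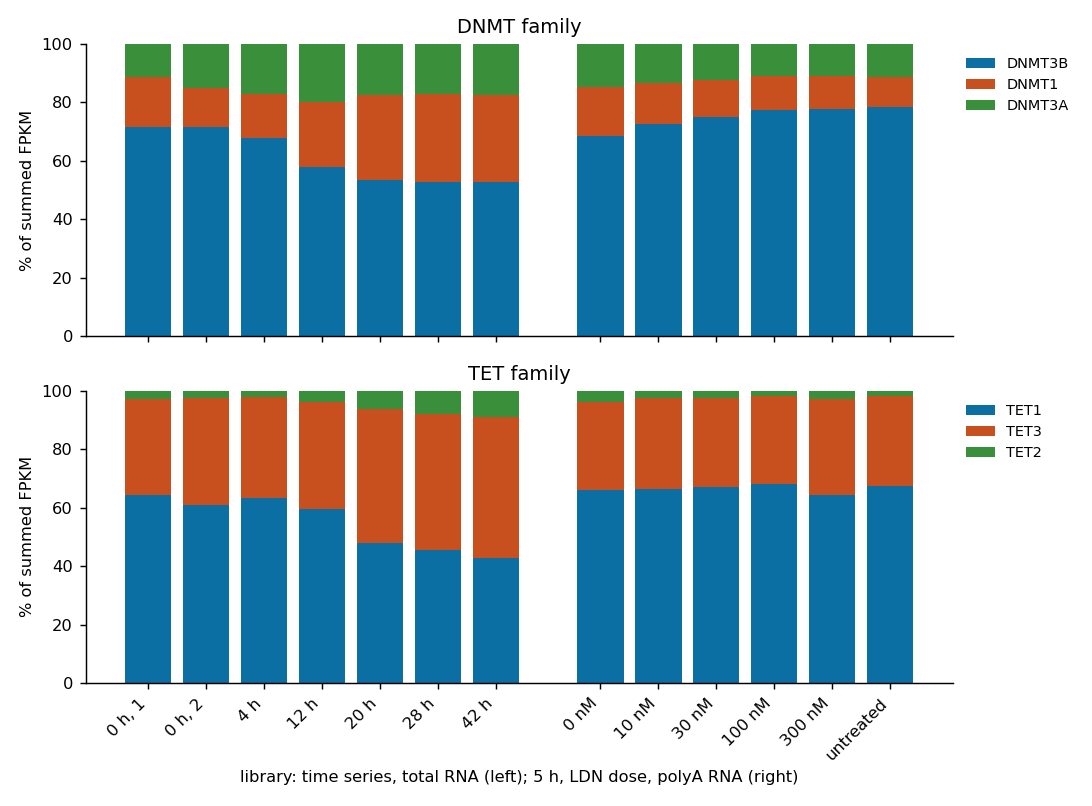
Share of each gene in the summed FPKM of its family (y axis, %) in every library (x axis; time series on the left, dose response on the right), for the DNMT family in the upper panel and the TET family in the lower one. Bars are single libraries stacked to 100%; DNMT3B goes from 71.5% and 71.7% at 0 h to 52.8% at 42 h, and TET1 from 64.3% and 61.0% to 42.8%.

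A list of 51 other genes that act with DNA methylation showed 9 rising and 10 falling of 49 tested over time, where 19.2% of all genes rose and 17.5% fell, with a median of −0.205 against −0.005 for all genes tested. On library totals, on which the median gene shifted by −0.24, the same list gave 4 rising and 19 falling, and on FPKM 5 and 17. Without the 42 h library it gave 4 rising and 4 falling. With LDN 7 rose and 7 fell of 50 tested, where 10.4% of all genes rose and 10.9% fell, with a median of 0.013 against −0.003 for all genes. On FPKM limma called 1 rising and 3 falling. The counts were 3 and 5 without the 0 nM library, 3 and 7 without the 100 nM library and 4 and 6 without the 300 nM library.

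The list of partners of methylation holds genes that open chromatin for the DNMT enzymes or guide and protect them. It also holds genes such as QSER1 that act against these enzymes at some promoters, so its count has no single direction for methylation. Partners fell in 6 of 16 cases over time and rose in none, where 17.5% of all genes fell. Their median was −0.53 against −0.005 for all genes. CDCA7L, a relative of the HELLS activator CDCA7, had 121 and 123 CPM at 0 h, 33.6 CPM at 20 h and 2.39 CPM at 42 h. HELLS, the chromatin remodeler needed for methylation of repeats, had 355 and 234 CPM at 0 h and 90.8 CPM at 42 h. QSER1, known to protect bivalent promoters from DNMT3 enzymes together with TET1, had 618 and 345 CPM at 0 h and 123 CPM at 42 h. Their fitted changes were −5.58 ± 0.53, −1.62 ± 0.37 and −1.87 ± 0.42, with adjusted p of 0.000202, 0.0117 and 0.0107 in edgeR. USP7, ZBTB24 and NSD1 also fell. PCNA in this list is also an S phase marker. The count was 10 falling on library totals, 9 on FPKM and 2 with hours on a log scale. It was 4 falling and 1 rising without 0 h replicate 1, and 2 falling without the 42 h library. With LDN 3 partners fell (HELLS by 0.38, QSER1 by 0.26 and SETD2 by 0.17 on the log2 scale) and 3 rose (CDCA7L, EHMT2 and KDM2B). These were of 16 tested, where 10.9% of all genes fell and 10.4% rose. On FPKM limma called 1 falling and 0 rising. With the untreated library as a further dose step, 1 fell and 1 rose.

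Genes listed as readers other than MBD2 rose in 5 of 9 cases (MBD1, MBD3, MBD6, ZBTB38 and ZBTB4) and fell in none. Of all genes 19.2% rose, and the median of the list was 0.75. For some of the list, such as MBD3 and MBD6, selective binding of methylated CpG is not established. MBD6 had 24.7 and 17.5 CPM at 0 h and 45.1 CPM at 42 h, a fitted change of 1.05 ± 0.27 (adjusted p = 0.0186 in edgeR). This count rested on the scaling and on single libraries. On FPKM 1 rose and 1 fell. The count rising was 1 of 9 on library totals and without the 42 h library, 2 without the 4 h library, and 3 without either 0 h library or without the 12 or 28 h library.

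Among genes of removal and repair, GADD45A and GADD45B, stress-inducible adaptors linked to demethylation, rose most. GADD45B had 1.69 and 2.13 CPM at 0 h, 9.17 CPM at 4 h, 19.8 CPM at 12 h and 66.8 CPM at 42 h. GADD45A had 3.16 and 4.85 CPM at 0 h, 4.34 CPM at 4 h and 56.5 CPM at 42 h. GADD45B had thus left the 0 h range by 4 h, GADD45A had not. The fitted changes were 4.73 ± 0.91 and 3.78 ± 0.26, with adjusted p of 0.00521 and 5.10e-05 in edgeR. SMUG1 rose and CXXC4 fell as well, so that 4 of 13 tested genes passed, of 15 in the list, where 36.7% of all genes did. On library totals 2 rose and 3 fell.

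At 5 h GADD45B had 18.6 CPM without LDN, 14.3 CPM at 10 nM, 10.4 CPM at 30 nM, 7.92 CPM at 100 nM and 5.31 CPM at 300 nM, and 4.62 CPM untreated. GADD45G, the third member of the family, had 1.61, 2.27, 2.29, 3.55 and 7.47 CPM at these doses and 7.90 CPM untreated. CXXC5, a CXXC-domain protein that binds unmethylated CpG, had 197, 193, 169.7, 149 and 129 CPM and 108 CPM untreated. GADD45B and CXXC5 thus fell with LDN and GADD45G rose, each towards its untreated level. Their fitted changes were −1.76 ± 0.11, −0.64 ± 0.06 and 2.19 ± 0.29 (adjusted p = 4.31e-07, 5.84e-06 and 0.000152 in edgeR). At 4 h of the time series GADD45B was higher and GADD45G lower than at 0 h, the 2 of 49 list genes that passed, where 5.02% of all genes did. Further genes with smaller dose trends were MBD6 at −0.43, KDM2B at 0.22 and SHMT2 at 0.19.

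For the supply of methyl donor and cofactor, 1 of 10 genes rose over time and 2 fell, where 36.7% of all genes passed. On library totals 5 fell and on FPKM 4, with 1 rising in each, and without 0 h replicate 1 or without the 4, 12 or 42 h library 1 fell. IDH2, which makes 2-oxoglutarate in mitochondria, had 29.1 and 38.2 CPM at 0 h and 136.5 CPM at 42 h, a fitted change of 2.06 ± 0.19 (adjusted p = 0.000179 in edgeR). IDH1, which makes 2-oxoglutarate in the cytosol, averaged 419 CPM at 0 h and fell (−0.85 ± 0.18, adjusted p = 0.00836 in edgeR). The 2-oxoglutarate available to the TET enzymes was not measured. TRDMT1, the DNMT relative that methylates transfer RNA, had 24.6 and 19.1 CPM at 0 h and 7.05 CPM at 42 h, a fitted change of −1.56 ± 0.22 (adjusted p = 0.00142 in edgeR).

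**Figure D5:**
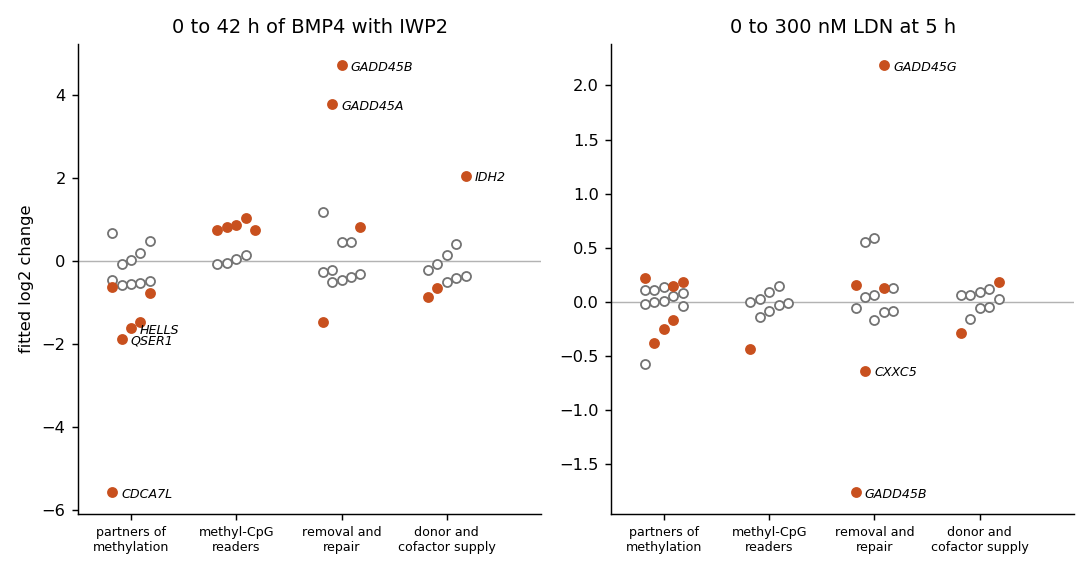
Fitted log2 change (y axis, with scales that differ) of other DNA methylation genes by the role under which they were listed (x axis). The left panel is over 42 h and the right panel from 0 to 300 nM LDN. Each point is a gene, filled where the adjusted p in edgeR was under 0.05; GADD45B stands at 4.73 over time and −1.76 with LDN, and CDCA7L at −5.58 over time.

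Germline genes whose promoters are known to be methylated in somatic cells were near the detection limit. Of 8, none reached 1 CPM on average in the time series, and DAZL alone did in the dose response, with 1.29 to 1.61 CPM over the LDN doses and 2.08 CPM untreated. TEX14 reached 1.61 CPM, SYCP3 1.32 CPM and TDRD1 1.16 CPM in their highest libraries. The summed level of the 8 was 3.89 and 3.26 CPM at 0 h, 4.24 CPM at 4 h and 1.17 CPM at 42 h. It was 2.88 to 3.64 CPM with BMP4 at 5 h and 4.88 CPM untreated. DAZL, the only 1 of the 8 tested for the trend with LDN, did not pass (−0.27 ± 0.28, adjusted p = 0.556 in edgeR). Over hours 0 of the 8 were tested. A change at these levels was not detectable for most of the 8 at this depth.

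The genes whose profiles over the 7 time-series libraries were most like those of DNMT3B, by Pearson's r of log2 CPM over genes averaging 10 CPM or more, were AKAP1 (r = 0.995), UBE2G2 (0.993) and ERBB2 (0.989). Over the 6 dose-response libraries their r with DNMT3B was 0.466, −0.577 and 0.893. For TET1 they were NUTM2B-AS1 (0.992), RALGAPA1 (0.989) and PHC3 (0.987), with 0.169, 0.0582 and 0.245 over the dose response. For UHRF1 they were DGLUCY (0.988), the unnamed gene ENSG00000282051 (0.981) and TSPY26P (0.981), with −0.586, 0.966 and 0.586. The profiles share libraries and depth, and a match over time was thus often no match over dose. DNMT3L had too few counts for such a comparison to be read.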

How the data were processed

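Members and gene lists were chosen with earlier results of these data known. Reads were trimmed, mapped to GRCh38 with STAR 2.7.8a and counted with RSEM 1.3.3 by the authors, who deposited expected counts per gene (whole numbers, not scaled) and FPKM (scaled for length and depth by the authors). The annotation release is not given in the sources used here.

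Counts were scaled with TMM, filtered at a mean of 1 CPM and tested with edgeR 4.0.16 (quasi-likelihood, Benjamini-Hochberg adjustment at 0.05) over all genes of each experiment. The factor fit over times leaves 1 residual degree of freedom. Nothing in the labels says that the 0 h libraries came from separate cultures, so p-values may measure technical spread. Alternatives used DESeq2 1.42.0 and limma 3.58.1 on log2(FPKM + 0.1) or log2(FPKM + 1), whose changes are on that scale and understate those of low genes. Ratios of 2 libraries have exact binomial intervals. Promoters came from GENCODE 44 on GRCh38. R 4.3.3 and Python 3.11.15 were used. The fits were run on simulated data with large changes and the same spread for all genes. That run does not measure the error of the calls made here. Genes outside the 10 were named by a rule: the 4 largest rises and falls over 42 h and the 3 largest dose trends in each direction among those that passed. Other list genes named are those that passed and fall outside this rule, chosen after their values were seen. Some items are not reported here.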

Additional observations from a re-analysis of the deposited data

Results flagged for a closer look

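For DNMT1, the sign of the early difference depended on the scaling. At 4 h it was 0.117 above the 0 h mean on the log2 scale and outside both 0 h libraries, a difference that did not pass. At 5 h the log2 ratio of the library without LDN to untreated cells was 0.001 on library totals, −0.084 with TMM scaling (counting interval −0.137 to −0.032) and 0.38 on FPKM. The signs were opposite under TMM and not on library totals or FPKM, and the difference between the experiments was not tested.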

How the results depend on the processing

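Of 9 members tested, the count past the trend with hours was 3 and became 5 with a quadratic term (UHRF1 and MBD2 in addition). The count past the LDN trend was 4, with 1 in each limma fit on FPKM (0.1 or 1 added, or no minimum) and 2 without the 0 nM or the 300 nM library. At 5 h against untreated it was 1, and 0 with DESeq2 size factors. An alternative chosen after seeing the data, library totals without mitochondrial genes, gave 1. Leaving out each library gave 3 to 4 for hours, 2 to 4 for LDN dose, 2 to 3 for a difference among times, 3 for 42 h and 0 for 4 h against 0 h. The causes were not tested. Over all genes, library totals moved the share of rising calls from 52.4% to 34.3% over hours and from 52.7% to 37.9% at 42 h. The 5865 genes called over hours became 3259 without 42 h and 3413 on log2 hours. The 3180 called by LDN dose became 1107, 1106 and 365 in the limma fits, 1978 without 0 nM and 2102 without 300 nM, and the 802 called at 4 h became 455 with DESeq2. The limma fits moved the share of rising calls to 35.9% over hours, and from 48.9% to 37.5% and 30.7% (no minimum) with LDN. Signs that turned were of values that did not pass in the tests reported. Over hours these were DNMT1 at −0.159, −0.157 and −0.159 on FPKM, and TDG, at −0.482 to 0.0413 over the libraries left out. With LDN, DNMT1 was at −0.0481, −0.0476 and −0.0481 and TDG at −0.0233, −0.0229 and −0.0233 on FPKM. Over the libraries left out, the LDN trend was −0.0142 to 0.0409 for DNMT1, −0.694 (without 300 nM) to 0.0113 (without 0 nM) for TET2 and −0.0206 to 0.0984 for TDG, which was −0.0114 without 10 nM. On library totals UHRF1 was −0.0856 at 42 h, and TET1 was 0.0789 and MBD2 0.0567 at 4 h. At 4 h without 0 h replicate 1, DNMT3A was −0.014, TET1 0.38, TET2 0.0125 and TET3 0.0891, each of the other sign. At 5 h against untreated, library totals, TMM and FPKM gave 0.0011, −0.0844 and 0.38 for DNMT1, −0.0241, −0.11 and 0.10 for DNMT3A, and 0.0431, −0.0424 and −0.0595 for TDG. No paired analysis was possible because only 0 h had more than 1 library. The fits with separate times have no test without a 0 h library. Depth limits DNMT3L and TET2.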

Other observations

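The count and FPKM tables together give the length that the authors' estimate assigned to each gene in each library, as CPM on library totals over FPKM. For DNMT1 this length was 2.45 kb in 0 h replicate 1, 3.13 kb in 0 h replicate 2 and 3.44 kb at 42 h, and at 5 h it was 3.45 to 3.58 kb with BMP4 and 4.49 kb in untreated cells. DNMT1 per length moved differently from its counts, with 84.1 FPKM without LDN against 64.5 FPKM untreated where CPM were 285 and 302. For DNMT3B the length was 4.03 to 4.06 kb and for TET1 9.33 to 9.35 kb over the time series. TET3 had 7.78 to 8.91 kb in total RNA and 10.3 to 10.9 kb in polyA RNA.

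ZFP57, a zinc finger protein that guards methylation at imprinted loci, was chosen after its values were seen. It had 0.570 and 0.532 CPM at 0 h, 3.05 CPM at 20 h and 0.0754 CPM at 42 h, a rise and fall that the line over hours did not call. GADD45G had 10.7 and 17.5 CPM at 0 h, 1.13 CPM at 20 h and 19.2 CPM at 42 h, a fall and return. The fit with separate times called both. Its error rests on the 0 h pair, which may measure technical spread, and each later time is 1 library, so no p-values are given here.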
